A study of Glycine max with 44 samples.

Results

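A set of 16 soybean probe sets, which stand for 12 genes known by locus numbers, had high signal at 2 h and low signal at 48 h in untreated root tips, and differed little at 48 h between roots with and without aluminium (Al). They were found among 6999 soybean probe sets that the platform annotation ties to a single gene with a locus number (5024 genes), of 37593 soybean probe sets in the table. The arrays were Affymetrix soybean GeneChips hybridised with labelled RNA from the terminal centimetre of the tap root. Roots of 2 genotypes, PI 416937 (Al-tolerant) and Young (Al-sensitive), grew in hydroponic solution with 10 µM Al or with 0 µM Al (called untreated below) and were taken at 2, 12, 48 and 72 h. All groups shared a growth cycle of 28 °C with 16 h of light and 20 °C with 8 h of dark. Each genotype, treatment and time had 2 arrays at 2 h and 3 arrays at the later times, 44 arrays in 16 groups. The labels do not state whether arrays of a group are separate cultures, and p-values here describe only the scatter between arrays, some of which may be technical. No label gives the clock hour of collection, so time in solution, plant age and time of day cannot be told apart.

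Aluminium in acid soil stops root growth at the root apex. Of the 12 genes, the reference tables give a family name to 2. LOC547583 is GSTU18, a tau-class glutathione S-transferase; enzymes of this plant family attach glutathione to reactive compounds, and many of their genes are switched on by stress and by hormones. LOC100778559 is JAZ1, a jasmonate ZIM-domain protein; in Arabidopsis such proteins repress transcription factors of the jasmonate response until the hormone triggers their breakdown, and jasmonate switches their own genes on. The other 10 genes are LOC100305644, LOC100500571, LOC100803381, LOC100792940, LOC100305565, LOC100817546, LOC100500201, LOC100527184, LOC100137078 and LOC100527308, and no role is given for them here. In the RefSeq annotation of the Glycine_max_v4.0 assembly, no member lay within 5 genes of another. LOC547583 had 3 other tau-class genes within 5 genes, LOC100795880, LOC548031 and GSTU17.

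The members were chosen on measured values, on the scale log2(intensity + 16) that all levels and differences below use. Untreated 2 h minus untreated 48 h had to be at least 2 in both genotypes, and Al minus untreated at 48 h had to lie between -0.8 and 1 in both. The first condition was met by 137 of the locus-number probe sets in PI 416937, by 184 in Young and by 75 in both. Of those 75, 56 had an Al difference above 1 in a genotype, 3 had one below -0.8, and the 16 members had neither. In the opposite direction, 8 locus-number probe sets were at least 2 lower at 2 h than at 48 h in both genotypes. The selection difference was largest for LOC100305644, at 4.26 in PI 416937 and 6.54 in Young. Just inside its threshold, in the genotype with the smaller difference, were LOC100527308 (2.06), LOC100137078 (2.08) and a probe set of JAZ1 (2.27). Just outside were LOC100499905 (1.99), LOC100794412 (1.92) and LOC100790890 (1.91). At the lower Al threshold LOC100137078 (-0.74), LOC100500201 (-0.54) and LOC100500571 (-0.29) lay inside, and LOC100789243 (-1.28), LOC100783399 (-1.33) and LOC100500648 (-1.45) outside. At the upper one JAZ1 (0.95), LOC547583 (0.92) and LOC100500571 (0.91) lay inside, and LOC100527288 (1.04), LOC100797018 (1.06) and LOC100306332 (1.13) outside.

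The untreated 2 h, untreated 48 h and Al 48 h arrays thus chose the members, and every difference that uses them is a description without a test. The tests below compare only untreated 12 h and 72 h and Al 2 h, 12 h and 72 h. Their estimate of the spread comes from all 44 arrays, those that chose the members included, so they are not fully independent of the choice. The 2 untreated PI 416937 arrays at 2 h stood apart for several members. For 5 of the 16 probe sets they differed by more than 2, each time with replicate 2 higher, and the largest gap was 5.24, for LOC100817546. Without replicate 2 the rule lost 5 members: LOC100792940, LOC100305565, LOC100817546 and both probe sets of JAZ1. LOC100305644, both probe sets of LOC100803381 and probe set Gma.1502.2.S1_a_at of GSTU18 met the rule whichever of its 16 arrays was left out. LOC100527308 was lost with each of 5 arrays left out.

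Over all 61170 probe sets in the table, array medians of the intensity itself, before the log2 scale, ran from 6.56 to 7.52. The closest 2 arrays correlated at 0.9989 on the log2 scale. The 95th percentile of probe sets for other organisms set a background level of 4.41. Of the root tip genes (expansins, tubulins, aquaporins, auxin carriers and regulators of the tip), all 24 had a probe set above background. Of 45 seed genes, 9 had none, among them the glycinins GY1, GY5 and GY7. Of 5 nodule genes 4 were above background, and of 3 photosynthesis genes 3.

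With the levels of each gene centred on its own mean, the 12 genes averaged 2.26 at 2 h, 0.38 at 12 h, -0.71 at 48 h and -1.58 at 72 h in PI 416937 with Al. Untreated PI 416937 had 1.99, 0.23, -0.85 and -1.54 at the same times. Young with Al had 2.07, -0.08, -0.90 and -0.93, and untreated Young 2.46, 0.22, -1.26 and -1.75. The average lay lower at each later time in all 4 series. With Al, 2 h was the highest of the 4 times for 16 of 16 probe sets in PI 416937. In Young it was so for 16 of 16 too. The rule did not use these 2 h arrays, but it did use the 48 h arrays ranked with them. The counts are thus a description, and no share over all probe sets was taken. Lower means at every step were found for 11 probe sets in PI 416937 with Al, 8 in untreated PI 416937, 10 in Young with Al and 12 in untreated Young.

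**Figure D1:**
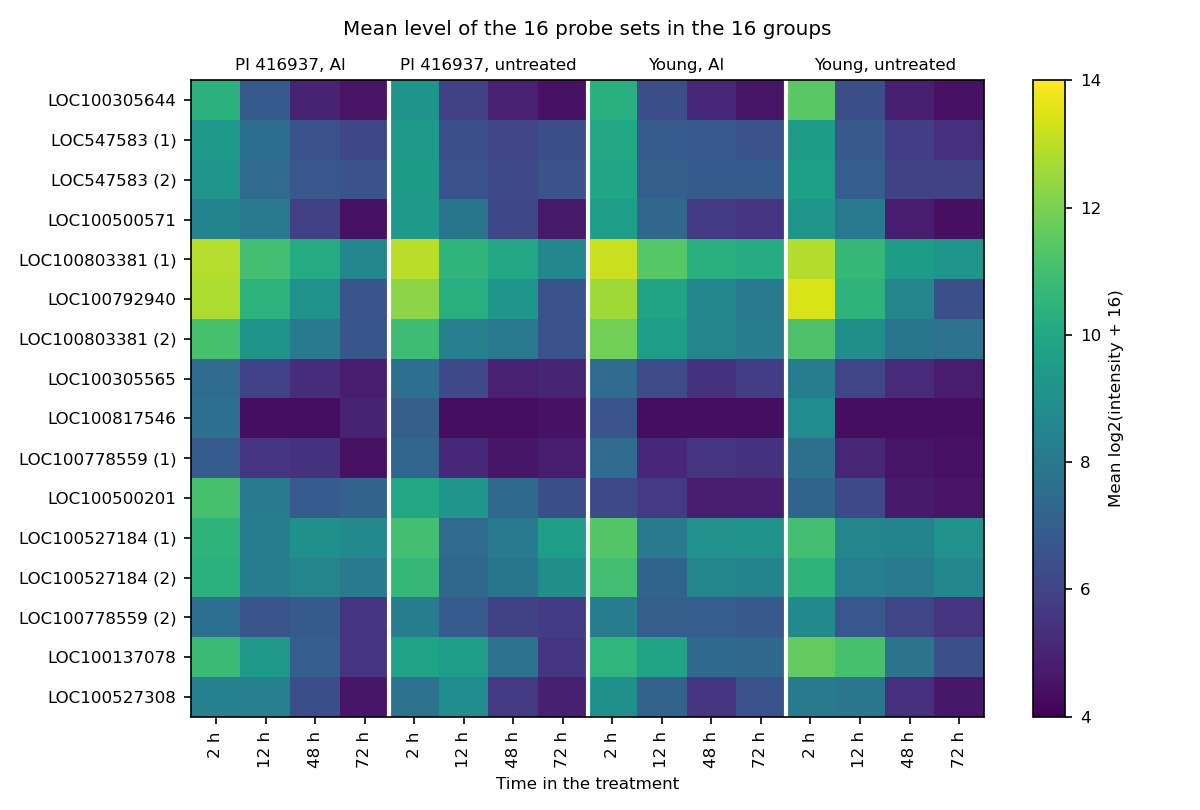
Mean log2(intensity + 16) of the 16 member probe sets (down the page) in the 16 groups (across), in blocks by genotype and treatment with 2, 12, 48 and 72 h in each; genes with 2 probe sets have both shown, numbered 1 and 2. The 2 h column of each block is the lightest for nearly all probe sets, and LOC100500201 is darker in Young than in PI 416937; colours of different probe sets do not compare amounts of RNA.

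LOC100792940 fell step by step. With Al, its level in PI 416937 was 12.62 and 12.95 at 2 h, 10.66, 10.66 and 10.03 at 12 h, 9.20, 9.70 and 8.44 at 48 h and 7.00, 6.12 and 6.73 at 72 h. In Young with Al it was 12.29 and 12.90 at 2 h, 10.22, 10.09 and 9.16 at 12 h, 9.46, 9.05 and 7.43 at 48 h and 7.59, 9.25 and 7.55 at 72 h. The 72 h arrays lay below the 2 h arrays in both genotypes, and with Al at 72 h the 3 PI 416937 arrays lay below all 3 of Young. Untreated at 72 h the level was 6.95, 5.80 and 6.77 in PI 416937 and 6.08, 6.33 and 6.85 in Young, which overlap.

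LOC100803381 fell in the same way by both member probe sets, whose group means correlated at 0.992 over the 10 groups that the rule did not use. By GmaAffx.90530.1.S1_s_at its level with Al in PI 416937 was 5.88, 7.02 and 7.19 at 72 h, against 11.52 and 10.63 at 2 h. In Young with Al it was 7.78, 8.79 and 8.00 at 72 h, against 12.70 and 11.05 at 2 h. Neither genotype's times overlap. A dim probe set of this gene, GmaAffx.90530.1.S1_at, was no member, with group means from 4.41 to 4.53. The suffix _s_at marks a probe set whose probes match more than 1 transcript, so signal of a related gene is not separated here, and this also holds for LOC100137078.

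GSTU18 (LOC547583) was low from 12 h on in untreated PI 416937. By Gma.1502.2.S1_a_at that series had 9.87 and 8.93 at 2 h, 6.54, 5.75 and 7.02 at 12 h, 6.11, 5.50 and 6.70 at 48 h and 6.91, 6.65 and 5.63 at 72 h, with the last 3 times overlapping. With Al at 12 h PI 416937 had 8.40, 7.58 and 6.92, against 6.54, 5.75 and 7.02 untreated. The groups overlap in 1 array each, and the difference of 1.20 ± 0.58 (standard error) did not pass limma's test (adjusted p = 1). In Young at 12 h the values were 6.69, 6.83 and 7.25 with Al and 8.53, 5.73 and 6.06 untreated, which overlap. Its other member probe set, Gma.1502.1.S1_at, correlated with this one at 0.994 over the 10 groups. A dim probe set of the gene, GmaAffx.93264.1.S1_at, was no member, with group means from 4.42 to 4.55.

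JAZ1 (LOC100778559), the jasmonate repressor, had arrays far apart at 2 h. By Gma.15155.3.S1_a_at PI 416937 had 7.83 and 5.93 with Al and 5.75 and 8.75 untreated at that time. Young had 7.40 and 7.56 with Al and 8.45 and 6.90 untreated. The groups of each genotype overlap, and 1 pair of arrays differed by 3.01. At 72 h PI 416937 had 4.41, 4.51 and 4.47 with Al and 5.47, 4.44 and 4.37 untreated, which overlap. At 72 h Young had 5.50, 5.83 and 4.93 with Al and 4.43, 4.44 and 4.43 untreated, without overlap, and the difference of 0.99 ± 0.49 did not pass limma's test (adjusted p = 0.265). Another probe set of JAZ1, Gma.15155.1.S1_a_at, was no member, since its Al difference at 48 h was 1.53 in PI 416937 and 1.47 in Young. With Al at 72 h in Young it averaged 10.29, against 7.83 untreated, higher by 2.46 ± 0.59 (limma adjusted p = 0.0153). The probe sets of this gene therefore fell on both sides of the rule.

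**Figure D2:**
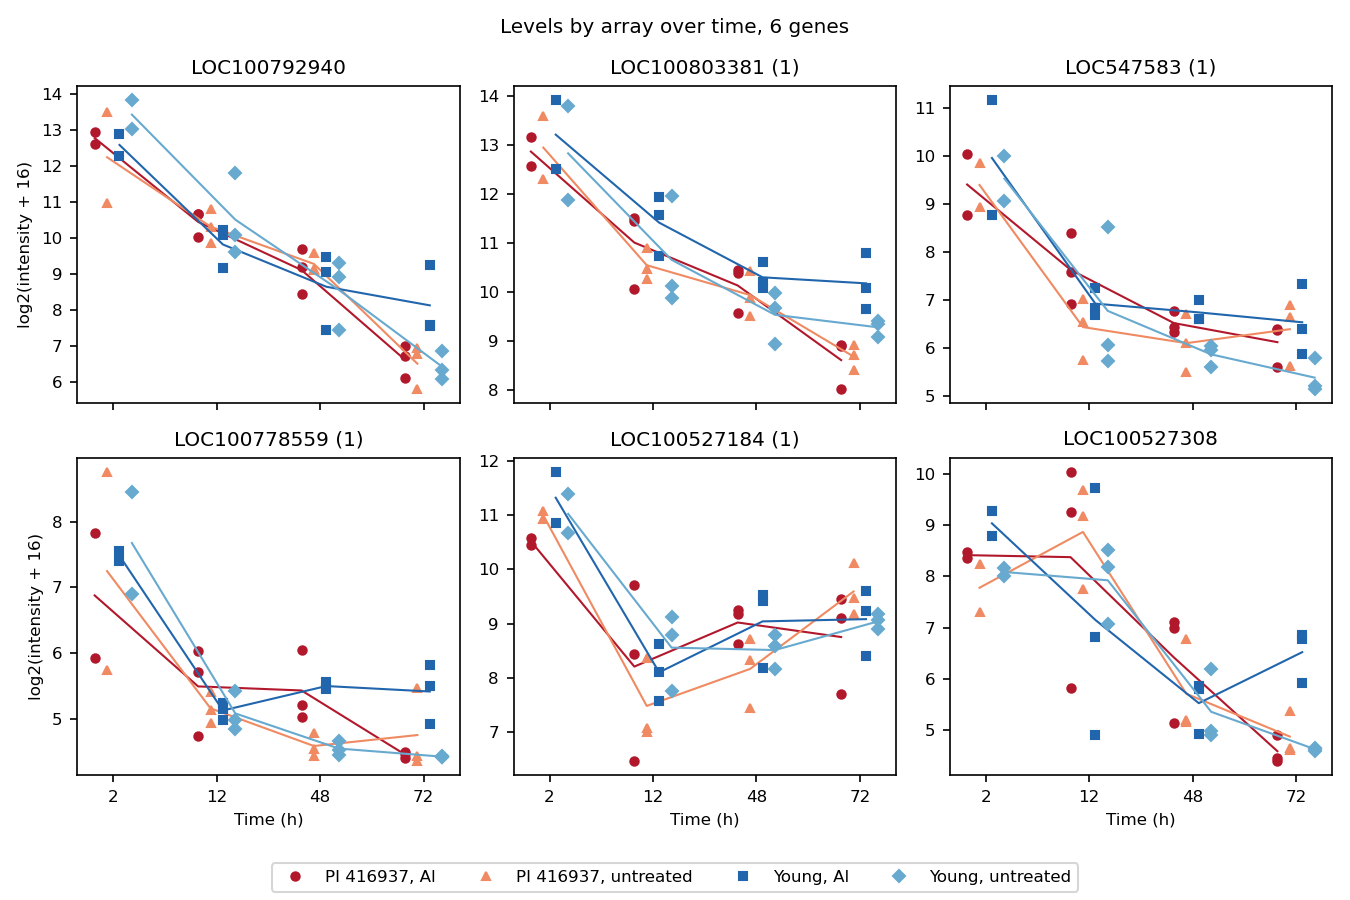
Levels of 6 member genes by array as log2(intensity + 16) at 2, 12, 48 and 72 h (times evenly spaced, not to scale); each point is an array, lines join group means, and vertical scales differ. Group means of LOC100792940 and LOC100803381 fall from each time to the next, those of LOC100527184 are lowest at 12 h in 3 of the 4 series, and LOC100527308 has its highest mean at 12 h in untreated PI 416937.

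LOC100305644 ended near background. With Al it had 4.65, 4.41 and 4.49 at 72 h, against 9.97 and 10.86 at 2 h, in PI 416937, and 4.60, 4.60 and 4.56 at 72 h, against 10.02 and 10.56 at 2 h, in Young. LOC100817546 left background mainly at 2 h, where it had 7.34 and 7.97 with Al and 4.41 and 9.65 untreated in PI 416937. In Young at 2 h it had 6.33 and 6.94 with Al and 10.34 and 7.28 untreated. Its untreated PI 416937 mean at 2 h thus rests on 1 of 2 arrays. At 12 h and 48 h every array of LOC100817546 was below the background level, and at 72 h PI 416937 with Al had 5.27, 4.35 and 5.29. LOC100500571 had 5.45, 6.18 and 4.92 with Al and 4.50, 4.36 and 4.40 untreated at 72 h in Young, without overlap, and 4.35, 4.57 and 4.46 with Al and 5.25, 4.41 and 4.39 untreated in PI 416937, which overlap.

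LOC100305565 was also scattered at 2 h, with 8.52 and 6.48 with Al and 5.19 and 10.09 untreated in PI 416937. In Young it had 8.43 and 6.60 with Al and 9.56 and 6.85 untreated. For LOC100305565 and JAZ1 alike, replicate 2 was the higher of the untreated PI 416937 arrays and replicate 1 the higher of the untreated Young arrays. The group means of LOC100305565 and JAZ1 correlated at 0.973 over the 10 groups.

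LOC100137078 and LOC100527308 fell late. Untreated LOC100137078 in PI 416937 had 9.95 and 9.66 at 2 h, 9.41, 10.06 and 9.35 at 12 h, 7.63, 8.75 and 6.78 at 48 h and 6.97, 4.77 and 4.84 at 72 h. In untreated Young it had 11.10 and 12.10 at 2 h, 11.81, 10.86 and 10.63 at 12 h, 7.96, 8.90 and 6.71 at 48 h and 6.58, 6.49 and 6.23 at 72 h. The 2 h and 12 h arrays overlap in both genotypes and the 72 h arrays lie below both. LOC100527308 in untreated PI 416937 had 8.24 and 7.32 at 2 h and 9.17, 7.75 and 9.68 at 12 h, which overlap. With Al at 12 h its arrays were far apart, at 5.83, 9.26 and 10.03 in PI 416937 and 6.83, 4.91 and 9.71 in Young. Of 5 further probe sets of LOC100137078, none met the rule. A dim one, GmaAffx.50551.1.S1_at, had group means from 4.43 to 4.69. The other 4 had untreated 2 h minus 48 h differences of 1.09 to 1.55 in PI 416937, under the threshold, and limma called all 4 lower at untreated 72 h than at 12 h in both genotypes, from -4.23 to -1.86 in PI 416937 and from -4.13 to -2.31 in Young. A second probe set of LOC100527308, GmaAffx.88862.1.S1_at, had group means of only 4.38 to 4.69 and was not called between those times.

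LOC100527184 did not keep falling. By Gma.3285.1.S1_at untreated PI 416937 had 10.92 and 11.07 at 2 h, 8.38, 7.01 and 7.08 at 12 h, 8.33, 8.73 and 7.45 at 48 h and 9.47, 10.13 and 9.19 at 72 h. The 72 h arrays all lay above the 12 h arrays and below the 2 h arrays. In untreated Young it had 8.90, 9.06 and 9.17 at 72 h, against 9.13, 8.79 and 7.76 at 12 h, and with Al in PI 416937 7.71, 9.11 and 9.45 at 72 h, against 9.71, 8.44 and 6.48 at 12 h. Both of these pairs of times overlap.

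LOC100500201 was higher in PI 416937 than in Young in every condition, with no overlap of arrays in any. With Al at 2 h it had 11.04 and 11.16 in PI 416937, against 6.78 and 5.73 in Young. With Al at 12 h it had 7.33, 9.14 and 7.99 in PI 416937, against 6.80, 5.11 and 5.10 in Young, and at 72 h 7.59, 6.51 and 7.34, against 5.12, 4.81 and 4.60 in Young. Untreated at 12 h it had 9.35, 9.20 and 9.15 in PI 416937, against 7.43, 4.90 and 6.29 in Young, and at 72 h 7.69, 5.92 and 5.57, against 4.52, 4.48 and 4.62 in Young. Over these 5 conditions, none of which the rule used, PI 416937 was higher by 2.90 ± 0.25 (standard error; limma adjusted p = 7.91e-10), where 10.1% of all tested probe sets were called in either direction, 5.72% higher and 4.41% lower. At 2 h with Al alone it was higher by 4.85 ± 0.66 (limma adjusted p = 2.15e-05), where 1.86% of all tested probe sets were called, 1.43% higher; this call was lost in a fit to the compared groups alone (adjusted p = 0.276). Whether the genotypes differ in sequence under these probes was not tested.

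**Figure D3:**
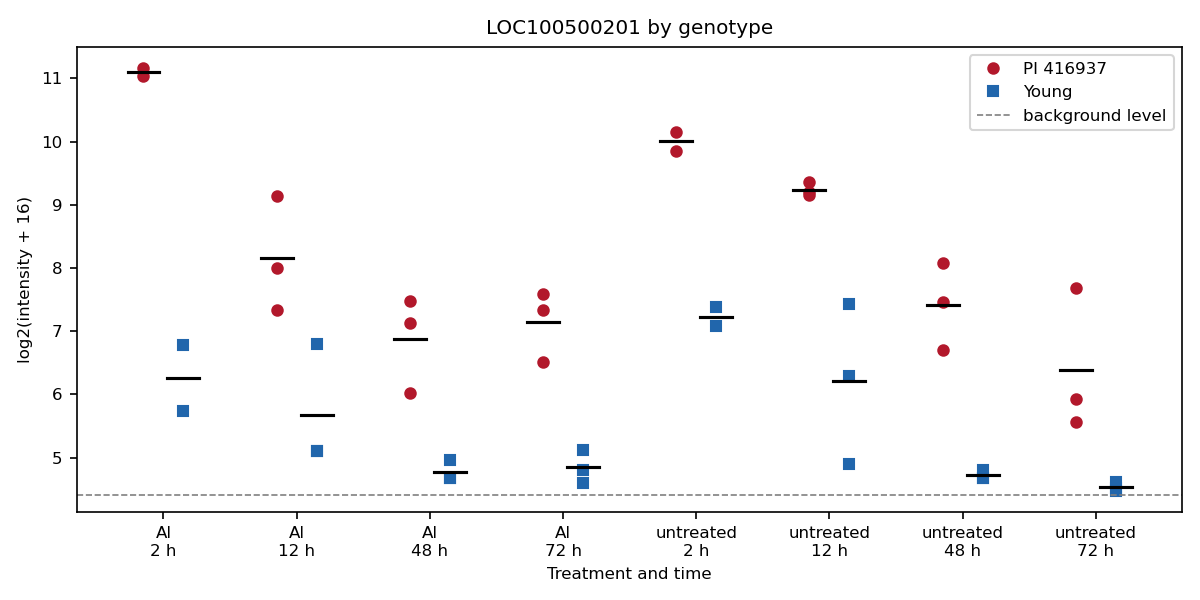
Level of LOC100500201 by array as log2(intensity + 16) in PI 416937 (circles) and Young (squares), by treatment and time; short bars are group means and the dashed line is the background level of 4.41. The PI 416937 arrays lie above the Young arrays in all 8 pairs of groups.

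LOC100803381 was the other member called between the genotypes over the 5 conditions. By GmaAffx.90530.1.S1_s_at PI 416937 minus Young was -0.92 ± 0.25 (limma adjusted p = 0.0143), and by its other member probe set -0.60 ± 0.24 (adjusted p = 0.114). The call was lost without replicate 2 of PI 416937 with Al at 2 h (adjusted p = 0.0519) and without replicate 1 of Young with Al at 2 h (adjusted p = 0.0602). LOC100137078, at -0.88 ± 0.32, came next (adjusted p = 0.0838), and was called with the replicate number as a block (adjusted p = 0.0346).

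The change with time in Al-treated roots was tested between groups that the rule did not use, with the spread estimated from all arrays. All 16 probe sets passed the filter on low signal, as they had to through their untreated 2 h level. In PI 416937 all 16 (12 genes) were called lower at 72 h than at 2 h, with a median of -3.55 and a range from -6.16 to -1.76. Over the 35289 tested probe sets, 25.1% were called in either direction and 11.6% lower, with a median of 0.01. The strongest calls were LOC100792940 (-6.16 ± 0.68, limma adjusted p = 2.43e-07), LOC100305644 (-5.90 ± 0.68, adjusted p = 4.51e-07) and LOC100803381 by Gma.4360.1.S1_s_at (-4.25 ± 0.57, adjusted p = 4.79e-06). GSTU18 had -3.29 ± 0.65 and -2.65 ± 0.60 by its 2 member probe sets (adjusted p = 0.000502 and 0.00166). JAZ1 had -2.41 ± 0.54 and -2.16 ± 0.49 (adjusted p = 0.00167 and 0.00176). Without replicate 1 of PI 416937 with Al at 2 h, 10 were called. LOC100305565, Gma.1502.1.S1_at of GSTU18 and both member probe sets of JAZ1 and of LOC100527184 lost their calls. Probe sets of LOC100817546 that are no members were not called in the full fit. GmaAffx.41009.1.S1_at had -0.94 ± 0.46 (limma adjusted p = 0.137) and GmaAffx.41009.1.A1_at -0.02 ± 0.06 (adjusted p = 0.856).

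In Young, 12 of the 16 (9 genes) were called lower at 72 h than at 2 h with Al, where 12.1% of all tested probe sets were called and 5.51% were called lower. The median was -2.78, against 0.00 over all tested, with a range from -5.70 to -1.41. LOC100305644 had -5.70 ± 0.68 (limma adjusted p = 3.62e-06), LOC100500571 -4.05 ± 0.55 (adjusted p = 2.02e-05) and LOC100792940 -4.46 ± 0.68 (adjusted p = 9.03e-05). Not called were LOC100305565 (-1.71 ± 0.84, adjusted p = 0.193), LOC100500201 (-1.41 ± 0.61, adjusted p = 0.13), LOC100527308 (-2.51 ± 0.95, adjusted p = 0.0821) and Gma.15155.1.S1_at of JAZ1 (-1.41 ± 0.49, adjusted p = 0.0562). Without replicate 1 of Young with Al at 2 h, 5 were called, and both probe sets of GSTU18 were among those lost (adjusted p = 0.095 and 0.114); their values in that array were 11.16 and 11.15, against 8.76 and 8.69 in replicate 2. Without its replicate 2, 8 were called, and a fit to the compared groups alone called 2. The difference in this change between the genotypes was tested too, and no member was called, where 0.754% of all tested probe sets were. LOC100500201 alone had an unadjusted p below 0.05 there (PI 416937 minus Young, -2.54 ± 0.86, limma adjusted p = 0.211). This does not show that the genotypes fell alike.

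**Figure D4:**
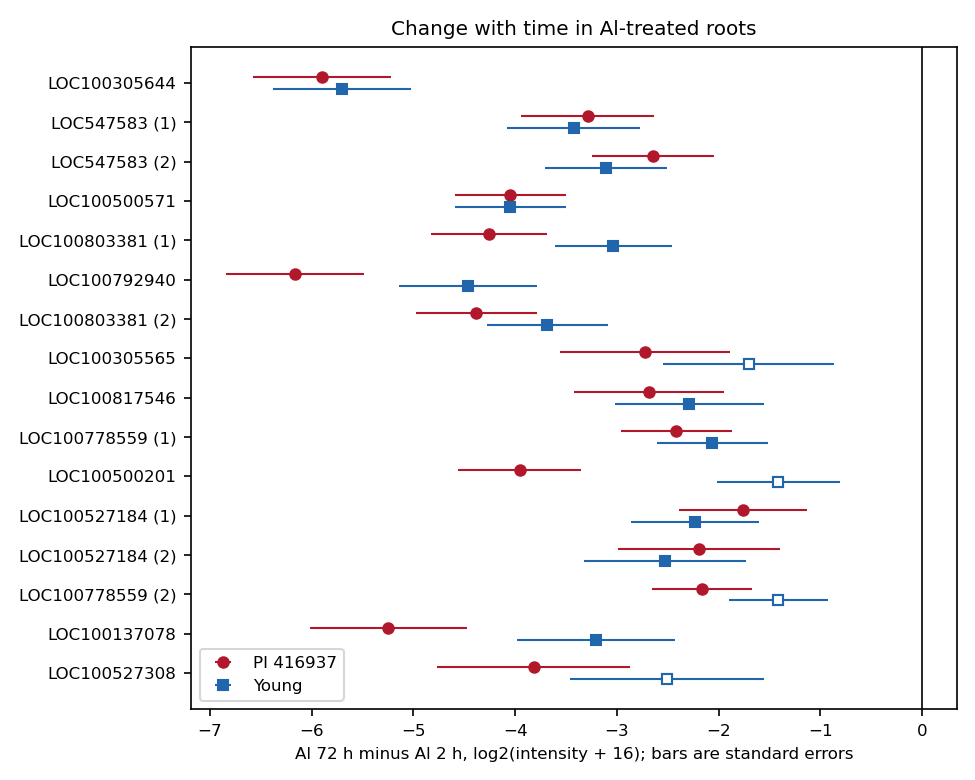
Al 72 h minus Al 2 h for the 16 probe sets (down the page) in PI 416937 (circles, the upper of each pair) and Young (squares), on the log2(intensity + 16) scale; bars are standard errors of the limma fit and open symbols did not pass an adjusted p of 0.05. Every point lies left of 0, from -6.16 to -1.41, and the 4 open symbols are all Young.

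Between 12 h and 72 h in untreated roots some members fell further, and 1 rose. In PI 416937, 7 probe sets (6 genes) were called lower at 72 h and 1 higher, where 24% of all tested were called, 12.9% lower and 11.1% higher; a fit to the compared groups alone called 5 of the 8. In Young, 6 (6 genes) were called lower and 0 higher, where 17.3% were called and 7.35% were lower. LOC100137078 had -4.08 ± 0.69 in PI 416937 and -4.67 ± 0.69 in Young (limma adjusted p = 0.000212 and 0.000113). LOC100527308 had -3.98 ± 0.85 in PI 416937 and -3.29 ± 0.85 in Young (adjusted p = 0.00155 and 0.00897). LOC100792940, LOC100500571 and LOC100500201 were called lower in both genotypes as well. The call for LOC100500201 in Young (-1.67 ± 0.54, adjusted p = 0.0322) was lost without 5 of the 6 arrays in turn (adjusted p up to 0.236). LOC100803381 was called in PI 416937 by both member probe sets (-1.86 ± 0.51 and -1.83 ± 0.53), the second of them lost without replicate 1 at 12 h or at 72 h. LOC100305644 was called in Young (-1.91 ± 0.61), and lost without 4 of the 6 arrays in turn (adjusted p up to 0.318). In the full fit the member probe sets of GSTU18, JAZ1, LOC100305565 and LOC100817546 were called in neither genotype. Gma.15155.1.S1_a_at, the JAZ1 probe set that is no member, was called lower in both (-1.88 ± 0.59 in PI 416937 and -2.26 ± 0.59 in Young, adjusted p = 0.0216 and 0.00996), and with a pseudocount of 1 so was the member Gma.15155.1.S1_at (adjusted p = 0.03 and 0.0262). LOC100527184 by Gma.3285.1.S1_at was higher at 72 h in PI 416937, by 2.11 ± 0.56 (adjusted p = 0.00761), while its other probe set had 1.58 ± 0.71 (adjusted p = 0.107) and in Young they had 0.48 ± 0.56 and 0.32 ± 0.71. In a comparison added after the values were seen, limma called no member's change different between the genotypes, and 0.00567% of all tested probe sets; 0 members had an unadjusted p below 0.05.

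The response to Al was tested at 12 h and 72 h, and limma called no member. At 12 h the median difference was 0.28 in PI 416937, from -1.08 for LOC100500201 to 1.20 for GSTU18, with 1 member at an unadjusted p below 0.05 and 0.00283% of all tested probe sets called. In Young at 12 h it was 0.00, from -1.26 for LOC100137078 to 0.76 for LOC100803381, with 0 such members and 0.0822% of all called. At 72 h in PI 416937 it was -0.15, from -0.84 to 0.76, with 0 such members and 0.0397% of all called. At 72 h in Young it was 0.92, from -0.16 to 1.89, against -0.02 over all tested; 14 of 16 were higher with Al, and 3.7% of all tested probe sets were called. Of all 35289 tested probe sets, 6763 had an unadjusted p below 0.05 there, and the 4 such members were LOC100527308 (1.89 ± 0.85, adjusted p = 0.216), LOC100792940 (1.71 ± 0.60, adjusted p = 0.109), JAZ1 by Gma.15155.1.S1_at (1.28 ± 0.44, adjusted p = 0.0977) and LOC100500571 (1.10 ± 0.49, adjusted p = 0.211). LOC100527308 had 6.87, 5.93 and 6.77 with Al and 4.65, 4.65 and 4.61 untreated in these arrays, without overlap. The difference between the genotypes in the Al response called no member at 12 h, where 0% of all tested were called and 0 members had an unadjusted p below 0.05. At 72 h it called none either, where 1.71% of all were called. Of all tested probe sets, 4997 had an unadjusted p below 0.05, and 1 member did (JAZ1, -1.52 ± 0.62, limma adjusted p = 0.244). The median was -0.94, against 0.05 over all tested, and 14 of 16 were negative. A negative sign stands for a lower Al difference in PI 416937 than in Young, which the test showed for no member. At 2 h, where the rule had used the untreated arrays, Al minus untreated ran from -0.87 to 1.24 in PI 416937 and from -2.17 to 0.95 in Young, with 8 probe sets higher and 8 lower in each. At 48 h, where the rule bounded the difference, 11 were higher and 5 lower with Al in PI 416937 (median 0.29, up to 0.88). In Young 14 were higher and 2 lower (median 0.50, up to 0.95).

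**Figure D5:**
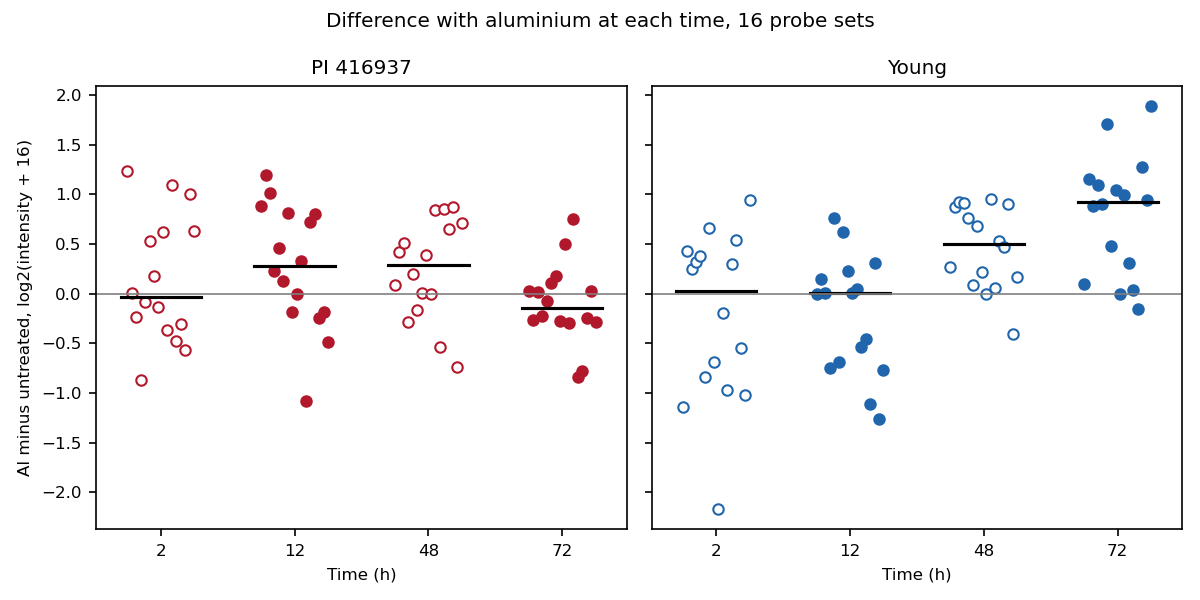
Al minus untreated, as differences of group means in log2(intensity + 16), for the 16 probe sets at 2, 12, 48 and 72 h in PI 416937 (left) and Young (right); black bars are medians, and open circles mark times whose arrays the rule used. Medians lie between -0.15 and 0.29 but for Young at 48 h (0.50) and at 72 h (0.92).

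The 12 genes shared their course only in part. Over the 10 group means that the rule did not use, correlations between pairs of genes ran from 0.12 to 0.97 with a median of 0.80 (66 pairs), a description across groups that all genes share. LOC100792940 was most like the rest, with a median of 0.922, while LOC100500201 (0.485) and LOC100527184 (0.518) were least like them and had 0.123 with each other. The closest pair was LOC100500571 and LOC100792940. Among soybean probe sets with a named gene, those most like the members' mean over the 10 groups were ALDH2C8 (r = 0.983), MYB186 (0.977), LHY by 2 probe sets (0.973 and 0.967), MYB118 (0.971) and GASA34 (0.966). This likeness leaves out the untreated 2 h and 48 h groups. There none of these probe sets reached the members' difference of at least 2 in PI 416937. Untreated in that genotype, LHY averaged 7.26 and 7.54 at 48 h by its 2 probe sets, against 7.47 and 7.94 at 2 h, and MYB186 averaged 6.89 at 48 h, against 6.79 at 2 h. In the same groups ALDH2C8 averaged 9.47 at 48 h, against 10.07 at 2 h, and GASA34 9.13, against 9.82. MYB118 averaged 5.425 at 48 h, against 6.464 at 2 h. In untreated Young all of these probe sets were higher at 2 h than at 48 h, and MYB118 did reach a difference of at least 2 (8.005 against 5.067). There GASA34 averaged 10.94 at 2 h, against 8.95 at 48 h, and LHY 8.42 and 8.52, against 6.88 and 7.46. MYB186 averaged 7.48, against 6.07, and ALDH2C8 10.55, against 9.48. ALDH2C8 spanned only 1.30 over the 10 groups. LHY is a morning-phase transcription factor of the plant circadian clock.

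Gene lists were counted over the same change between 2 h and 72 h with Al, in which 11.6% of all tested probe sets were called lower in PI 416937 and 5.51% in Young. Of 15 probe sets of clock and light genes (11 genes), 9 were called lower and 2 higher in PI 416937 (median -0.74), and 3 lower and 1 higher in Young (median -0.08). Of 37 probe sets of tau-class transferases (26 genes), a list made after the members were known and holding GSTU18, 16 were called lower and 0 higher in PI 416937 (median -1.08), and 6 lower and 1 higher in Young (median -0.49). With Al at 72 h in Young, 10 of these 37 were called higher than untreated and 0 lower, where GSTU18 had 1.15 ± 0.58 and 0.88 ± 0.53 and was not called (limma adjusted p = 0.281 and 0.385). The list of jasmonate repressors was also made after the members were known, and its only gene is the member JAZ1. Of its 4 probe sets, 3 were called lower in PI 416937 and 1 in Young. These calls include both member probe sets in PI 416937 and a member probe set in Young, so they repeat calls given above. Of 33 heat shock probe sets 3 were lower and 2 higher in PI 416937, and 2 lower and 2 higher in Young. Of 43 aquaporin probe sets 11 were lower and 1 higher in PI 416937, and 6 lower and 0 higher in Young. The root tip list below also holds aquaporins, and all those called here in PI 416937 are counted again there. The 3 probe sets of the glyoxylate cycle, which serves the use of stored fat, were all called lower in PI 416937 (median -3.76) and 0 were called in Young.

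Tissue markers and RNA controls were followed over the same interval, and their part in the members' change was not tested. With Al in PI 416937, 14 of 45 root tip probe sets were called lower and 2 higher at 72 h, 9 of 46 seed probe sets lower and 0 higher, 1 of 12 photosynthesis probe sets lower, and of 4 nodule probe sets 1 lower and 1 higher. In Young 7 root tip probe sets were lower, 2 seed probe sets lower and 1 higher, 0 photosynthesis probe sets either way, and 1 nodule probe set each way. Summed intensity in PI 416937 with Al was 477982 to 494585 per array at 72 h, against 535876 to 605811 at 2 h, for the root tip list, and 56728 to 69899, against 69252 to 105953 at 2 h, for the seed list. For the nodule list it was 980 to 1600 at 72 h, against 12463 to 14925 at 2 h, and for the photosynthesis list 11708 to 13143, against 12681 to 13413 at 2 h. In Young with Al the root tip list summed to 418645 to 480627 at 72 h, against 493672 to 540199 at 2 h, and the seed list to 58096 to 70404, against 61256 to 93772 at 2 h. There the nodule list summed to 2740 to 9154 at 72 h, against 5959 to 6752 at 2 h, which overlap, and the photosynthesis list to 8223 to 9743, against 9310 to 10645 at 2 h. The 72 h and 2 h sums of the seed and photosynthesis lists overlap in both genotypes as well. The log2 ratio of the 3′ to the 5′ probe set of an actin control averaged 0.97 at 72 h, against 0.90 at 2 h, in PI 416937 and 1.30 at 72 h, against 1.22 at 2 h, in Young. That of a P450 control averaged 3.97 at 72 h, against 2.08 at 2 h, in PI 416937 and 2.92 at 72 h, against 2.18 at 2 h, in Young. In bulk tissue, fewer cells of a type and less RNA per cell cannot be told apart.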

How the data were processed

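RNA was labelled with biotin and hybridised to Affymetrix soybean arrays, per the labels' protocols. The authors deposited 1 intensity per probe set and array on a linear scale; how they summarised and normalised it is not given in the sources used here. The deposited intensity values were used as given, as log2(intensity + 16), where the added 16 understates changes of dim probe sets. Gene names came from the platform annotation and RefSeq tables. The members and gene lists were chosen with earlier results of these data known. Soybean probe sets were tested where a group mean exceeded the 95th percentile of probe sets for other organisms (35289 tested). limma 3.58.1 in R 4.3.3 fitted the 16 group means over 44 arrays with a trended prior; errors are standard errors, and a call is a Benjamini-Hochberg adjusted p under 0.05 over all tested probe sets of a comparison. The fit was also run on simulated data with independent noise between arrays, a simpler setting than these arrays, and no result here rests on that run. Pearson correlations describe group means. In all comparisons "higher" or a positive value means higher at the later time, with Al, or in PI 416937, apart from the selection difference of 2 h minus 48 h.

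Named with values were the 12 members with the largest selection difference, up to 6 called members per comparison and direction, members with an annotated name or several probe sets, those next to a threshold, and the 6 most alike probe sets with a named gene. Same-numbered arrays with and without Al deviated together in all 3 pairs only for Young at 12 h (correlations 0.241 to 0.294), where the replicate number was taken as a pairing; the blocked fit called no member there either. Untreated PI 416937 and Young arrays at 12 h also deviated together (0.239 to 0.408), a pair of groups that enters only the mean over 5 conditions and the added comparison of untreated changes. Alternatives were a pseudocount of 1, no filter, quantile normalisation, the replicate block, a fit to the compared groups alone, and leaving out each array in turn. The number of arrays limits the precision.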

Additional observations from a re-analysis of the deposited data

How the results depend on the processing

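No call of a member in any comparison changed sign under a pseudocount of 1, no filter, quantile normalisation, the replicate block, a fit to the compared groups alone, or leaving out 1 array. Of 45 calls, all 45 held without the filter and after quantile normalisation, 44 with a pseudocount of 1, 43 with the replicate block and 25 in the fit to the compared groups alone, which has fewer arrays; of 284 calls with 1 array left out, 242 held. In that smaller fit, 2 members were called in Young between Al 2 h and 72 h, 5 between untreated 12 h and 72 h in PI 416937, and 0 between the genotypes at 2 h with Al, where LOC100500201 had an adjusted p of 0.276. For Al minus untreated at 72 h in Young, members were called higher under 3 settings. With a pseudocount of 1 it was LOC100500571, and with the replicate block LOC100792940 (adjusted p = 0.0254). In the smaller fit 3 were called, LOC100305644, JAZ1 and LOC100527308. Of these, LOC100305644 differed by only 0.09, with means of 4.58 with Al and 4.49 untreated, near background. The cause was not tested. For counts of called members under alternative settings or with 1 array left out, here and above, the share of all tested probe sets called is not given. Such counts therefore do not show whether the members stood out from other probe sets. The replicate block removed the calls of both LOC100527184 probe sets between Al 2 h and 72 h in PI 416937 (14 of 16 left) and no other call. It also added calls for LOC100137078 between the genotypes over 5 conditions (limma adjusted p = 0.0346) and for LOC100803381 by Gma.4360.1.S1_s_at. The latter was lower at untreated 72 h than at 12 h in Young (-1.38, adjusted p = 0.0406). For that comparison the smaller fit added both member probe sets of JAZ1, also lower (adjusted p = 0.029 and 0.0051). A pseudocount of 1 added LOC100305644, lower in untreated PI 416937 at 72 h than at 12 h (adjusted p = 0.0251). Same-numbered arrays deviated together in 3 of 3 pairs only for Al and untreated Young at 12 h and for untreated PI 416937 and Young at 12 h. With 1 array left out, calls numbered 10 to 16 for Al 72 h minus Al 2 h in PI 416937 and 5 to 12 in Young, 7 to 8 for untreated 72 h minus 12 h in PI 416937 and 4 to 7 in Young, 1 to 1 between genotypes at 2 h with Al, 1 to 3 over 5 conditions, and 0 to 0 for each Al response and each difference between genotypes. The rule itself selected 24 probe sets with a pseudocount of 1 (10 shared with the 16), 12 with a pseudocount of 64 (9 shared), 18 after quantile normalisation (15 shared) and 13 to 28 with 1 array left out, 28 without replicate 1 of untreated PI 416937 at 2 h.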
